A study of Mus musculus with 22 samples.

Results

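The genes described here are the amino acid transporter families of the mouse retina, measured in Müller glia and in retinal progenitor cells (RPCs). They were taken by symbol from the solute carrier families 1, 3, 6, 7, 36, 38 and 43 among the mRNA rows of the count table, leaving out the glial glutamate carriers Slc1a2 and Slc1a3 and the glutamine carrier Slc38a3, which gave 61 of 44792 rows. Of these, 59 are transporter genes and 2 are genes named after a neighbouring transporter locus (Slc6a19os and Slc7a6os), which the symbol rule also takes. Per the labels, all mice were C57BL/6, and the Müller cells of 3 of the groups came by flow sorting from animals with an Rlbp1-GFP reporter, in which the promoter of a retinoid-binding protein gene drives green fluorescence. The NMDA group holds Müller cells of 2-3-month-old mice given NMDA into the vitreous of the eye 2 days earlier. NMDA overstimulates glutamate receptors and so damages neurons of the inner retina. The RPC group holds progenitors, the dividing cells that form the retina, from embryos of day 12.5. The labels used here state no sort for them. The aged group holds Müller cells of 1.5-year-old mice, and the young group Müller cells of untreated 2-3-month-old mice. RNA was sequenced from 3 NMDA, 3 RPC, 2 aged and 2 young libraries, and DNA methylation was read by reduced representation bisulfite sequencing (RRBS), which covers CpG-rich fragments, in 3 libraries of each group. Levels are given as CPM, the read count of a gene scaled by the total of its library. They are not corrected for transcript length, so they are compared between libraries and not between genes. Per the labels, RRBS libraries of every group and the RNA of young and of aged cells are biological replicates, while RNA libraries of NMDA and RPC are called replicates only. For these the p-values measure the spread between these samples, which may be technical.

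Amino acid carriers move their substrates across the plasma membrane or out of lysosomes, either driven by sodium or proton gradients or in exchange for another amino acid. Müller glia, which span the retina, take up transmitters that neurons release, among them GABA and glycine, and exchange cystine for glutamate to feed glutathione synthesis. Many family 7 carriers are light chains that reach the membrane only when bound to a heavy chain, Slc3a2 or Slc3a1. Dividing cells draw on neutral amino acid carriers such as Slc1a5, Slc7a5 and Slc38a2 for growth, and amino acid shortage raises the transcription of several of these genes through the factor Atf4.

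The sequences below are the 250 bases before the RefSeq start of 5 of these genes, from build GRCm38.p6 and 5′ to 3′ on the gene's strand. Slc7a11, Slc7a8 and Slc3a2 are shown because these exchanger partners had less RNA in progenitors and because RRBS read their start regions. Slc6a11 and Slc38a2 are shown as sodium-driven carriers whose contrasts run opposite to each other. Slc6a11 had less and Slc38a2 more RNA in progenitors than in Müller cells. The windows are chr3:50443614-50443863 (minus strand), chr14:54781887-54782136 (minus), chr19:8713898-8714147 (minus), chr6:114130991-114131240 (plus) and chr15:96699729-96699978 (minus). The listed starts of Slc7a11 and Slc3a2 lie inside the annotated gene spans, so other starts may exist. Capitals mark matches to either of 2 searched motifs on either strand, the core of the C/EBP-ATF response element, TGATGNAA, through which Atf4 acts, and the core of the antioxidant response element, TGACNNNGC, bound by Nrf2.
Slc7a11: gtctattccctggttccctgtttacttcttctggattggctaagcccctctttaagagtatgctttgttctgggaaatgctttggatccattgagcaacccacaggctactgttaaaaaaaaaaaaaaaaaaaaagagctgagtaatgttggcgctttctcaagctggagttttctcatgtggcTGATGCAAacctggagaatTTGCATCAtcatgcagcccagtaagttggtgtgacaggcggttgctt
Slc7a8: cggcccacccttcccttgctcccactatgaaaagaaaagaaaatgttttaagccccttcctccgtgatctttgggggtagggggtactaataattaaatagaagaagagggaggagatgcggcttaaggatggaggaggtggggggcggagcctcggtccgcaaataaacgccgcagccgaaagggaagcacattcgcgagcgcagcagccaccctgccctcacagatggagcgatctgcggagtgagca
Slc3a2: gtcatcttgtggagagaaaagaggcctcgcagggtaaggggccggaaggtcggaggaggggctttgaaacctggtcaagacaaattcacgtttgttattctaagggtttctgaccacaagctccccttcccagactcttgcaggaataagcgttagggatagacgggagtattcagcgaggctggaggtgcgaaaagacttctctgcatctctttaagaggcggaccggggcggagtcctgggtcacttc
Slc6a11: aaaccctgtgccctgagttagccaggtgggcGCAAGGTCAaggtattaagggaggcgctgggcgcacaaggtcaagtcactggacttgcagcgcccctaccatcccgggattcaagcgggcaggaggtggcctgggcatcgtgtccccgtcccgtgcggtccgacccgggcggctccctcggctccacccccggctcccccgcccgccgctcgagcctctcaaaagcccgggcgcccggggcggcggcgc
Slc38a2: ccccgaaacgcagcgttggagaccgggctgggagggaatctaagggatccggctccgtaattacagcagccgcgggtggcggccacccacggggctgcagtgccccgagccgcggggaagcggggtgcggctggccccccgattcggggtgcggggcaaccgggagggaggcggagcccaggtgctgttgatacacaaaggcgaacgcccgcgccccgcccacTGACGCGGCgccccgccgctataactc

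The Slc7a11 window holds the C/EBP-ATF core at 66 and, on the other strand, at 47 bases before the start, and the 2 matches do not overlap. Slc38a2 holds the antioxidant core at 27 bases and Slc6a11 at 219 bases before the start, while Slc7a8 and Slc3a2 hold neither string in these windows. Among the 44 members with a listed start, 2 (Slc7a11 and Slc7a7) carry the C/EBP-ATF core, which is present for 3.91% of all 27025 listed genes. The antioxidant core lies in 8 of the 44 members (Slc38a2, Slc43a1, Slc6a11, Slc6a13, Slc6a16, Slc6a9, Slc7a1 and Slc7a6), against 11.5% of all listed genes. A match is a description of letters and not of binding.

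Total counts ran between 10149390 and 36486072 per library. The young libraries stand apart, since 20920 to 23618 genes were detected in the other 8 libraries against 13913 and 14919 in the young ones. The correlation of log levels between replicates, across genes, was r = 0.954 to 0.989 within the other groups against 0.827 between the young libraries. A total of 24 members were at 0 in both young libraries. Another 8 members were at 0 in exactly 1 young library, 6 of these in young library 1. Low counts were nearly missing there, since 5 to 17 members had between 1 and 20 counts in each other library, against 1 member in young library 1 and none in young library 2. Total counts do not set the young libraries apart, with 15202738 and 10149390, beside 11067405 in RPC library 2. Whether a step before deposit removed low counts there is not known. A young 0 may thus stand for a low level, and no fold is given against young libraries at 0. Young zeros were not confined to genes that were low elsewhere. Slc7a6 had 0 counts in young library 1 and 168 in young library 2. Akt1s1, counted below among genes of amino acid sensing, was at 0 in both young libraries. It had 50 to 68.2 CPM after NMDA and 36.6 and 38.9 CPM in aged cells. The labelled cell types were in place. The 10 Müller markers summed to 18530 to 24216 CPM after NMDA, 2329 to 2354 CPM in RPCs, 49011 to 49652 CPM in aged cells and 51064 to 60916 CPM in young cells. The 9 RPC markers summed to 8022 to 8327 CPM in RPCs against 1063 to 1611 CPM after NMDA, 1917 to 1970 CPM in aged and 2052 to 2098 CPM in young cells. Transcripts of other cells were present. The 10 photoreceptor markers summed to 6790 to 10988 CPM after NMDA, 23.8 to 32.3 CPM in RPCs, 5303 to 8050 CPM in aged and 8950 to 12904 CPM in young cells. Microglial and macrophage markers (10 genes) summed to 279, 3199 and 626 CPM in the NMDA libraries, 49.6 to 65.3 CPM in RPCs, 72.5 and 80.4 CPM in aged and 6.31 and 78.6 CPM in young cells, so NMDA library 2 is far above the rest. Lens markers (5 genes) summed to 26.7, 684 and 34.5 CPM in the NMDA libraries, again highest in library 2. Blood markers (5 genes) reached 1839, 510.4 and 295 CPM in RPCs and stayed under 5 CPM elsewhere. The endothelial list was carried by Kdr and Flt1, while its defining markers Pecam1, Cdh5, Cldn5 and Tek were at 1.51 to 11.2, 0.693 to 3.76, 0.557 to 1.07 and 0.252 to 1.17 CPM after NMDA and at 0 in both young libraries. Gene models of other genes overlap Slc1a1 (Gm5822), Slc38a6 (Trmt5), Slc38a9 (Gm18883), Slc43a2 (Mir3971), Slc6a11 (Gm8132), Slc6a15 (6430590A10Rik), Slc6a9 (Ccdc24), Slc7a3 (Snx12) and Slc7a7 (Oxa1l). The strand setting of the counting is not given, so reads of these members may be shared with their partners.

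Across all members, 36 reached a group mean of 10 CPM of which 35 are described by library, 18 had counts but stayed below, and 7 had no count in any library. Summed over the members, libraries held 4282, 4269 and 4385 CPM after NMDA, 2180, 2230 and 2134 CPM in RPCs, 5821 and 5858 CPM in aged cells and 4395 and 5131 CPM in young cells. RPC libraries gave these genes the lowest share of their reads and aged libraries the highest, without overlap with any other group. Differences were tested with edgeR over all 18931 genes that passed its filter on low counts, and a gene was called at an adjusted p under 0.05. A total of 43 members passed that filter. The filter keeps genes that are high in any 1 group, so counts over these 43 are a description and not support for a difference of the families as such. Of these 43, 14 rose and 5 fell after NMDA against young cells, 44.2% called against 44.9% of all genes tested. In aged against young cells 9 rose and 3 fell, 27.9% called against 27% of all genes. In RPCs against young cells 12 rose and 18 fell, 69.8% called against 60.8% of all genes. Some of these rises were over young libraries at 0. They were Slc6a2, Slc6a5, Slc6a12, Slc6a13 and Slc38a8 for NMDA, Slc6a5, Slc6a12, Slc6a13 and Slc38a8 for aged cells, and Slc6a13, Slc38a5 and Slc38a8 for RPCs. Slc38a4, called higher after NMDA and in RPCs, had 1 count in young library 1 and 0 in young library 2. In RPCs against aged cells 11 rose and 17 fell, 65.1% called against 55.4%. NMDA against aged cells gave 2 higher and 7 lower members, 20.9% called against 20.3%. By direction, 30.6% of all genes were called higher and 14.3% lower for NMDA against young. These shares were 21.1% and 5.85% for aged against young, 35.9% and 24.9% for RPC against young, 10.5% and 9.8% for NMDA against aged, and 26.3% and 29% for RPC against aged. The median log2 change of the tested members was 0.40 for NMDA against young, 0.11 for aged against young, -0.04 for RPC against young, 0.24 for NMDA against aged and -0.28 for RPC against aged, beside 0.26, 0.13, 0.30, 0.04 and 0.02 over all genes in the same order of comparisons. The comparisons share the young or the aged libraries and are not independent of each other. Upper-quartile scaling moved the median over all genes for NMDA against young to 0.04 and the split of called members to 10 higher and 8 lower, so small rises after NMDA depend on the scaling. The number of called members in aged against young fell without either aged library and rose without either young library, so that count rests on single libraries. Without either aged library, fewer members were also called for RPC against aged and for NMDA against aged. The number of all genes called moved the same way in each of these fits. Fitted on the compared groups alone, 10 members were called for NMDA against young and 1 for aged against young. Over all genes, these fits called 3558 higher and 1337 lower for NMDA against young, and 322 and 19 for aged against young. With all groups in the fit these numbers were 5795 and 2702, and 3997 and 1108.

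For single genes, here and below, the alternatives leave out the 2-fold minimum, which was applied to counts of called members only. Calls kept under the others can thus be small, such as Slc38a9 for NMDA against young cells (1.57-fold). Under every such alternative, 6 of the 16 calls among the 36 members remained for NMDA against young cells. Among these were the lower Slc1a4 and the higher Slc6a8, Slc6a13, Slc38a9 and Slc43a2. Of these, Slc6a13 was at 0 in both young libraries. Of the 10 calls for aged against young cells, that of Slc6a11 alone remained. For NMDA against aged cells 5 of 9 remained, among them the lower Slc6a11, Slc7a2 and Slc1a4 and the higher Slc6a8. The contrasts with progenitors kept 20 of 29 calls against young cells, 8 of them higher in RPCs, and 17 of 25 against aged cells, with 4 higher (Slc7a1, Slc43a1, Slc38a2 and Slc38a4) and 13 lower in RPCs.

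**Figure D1:**
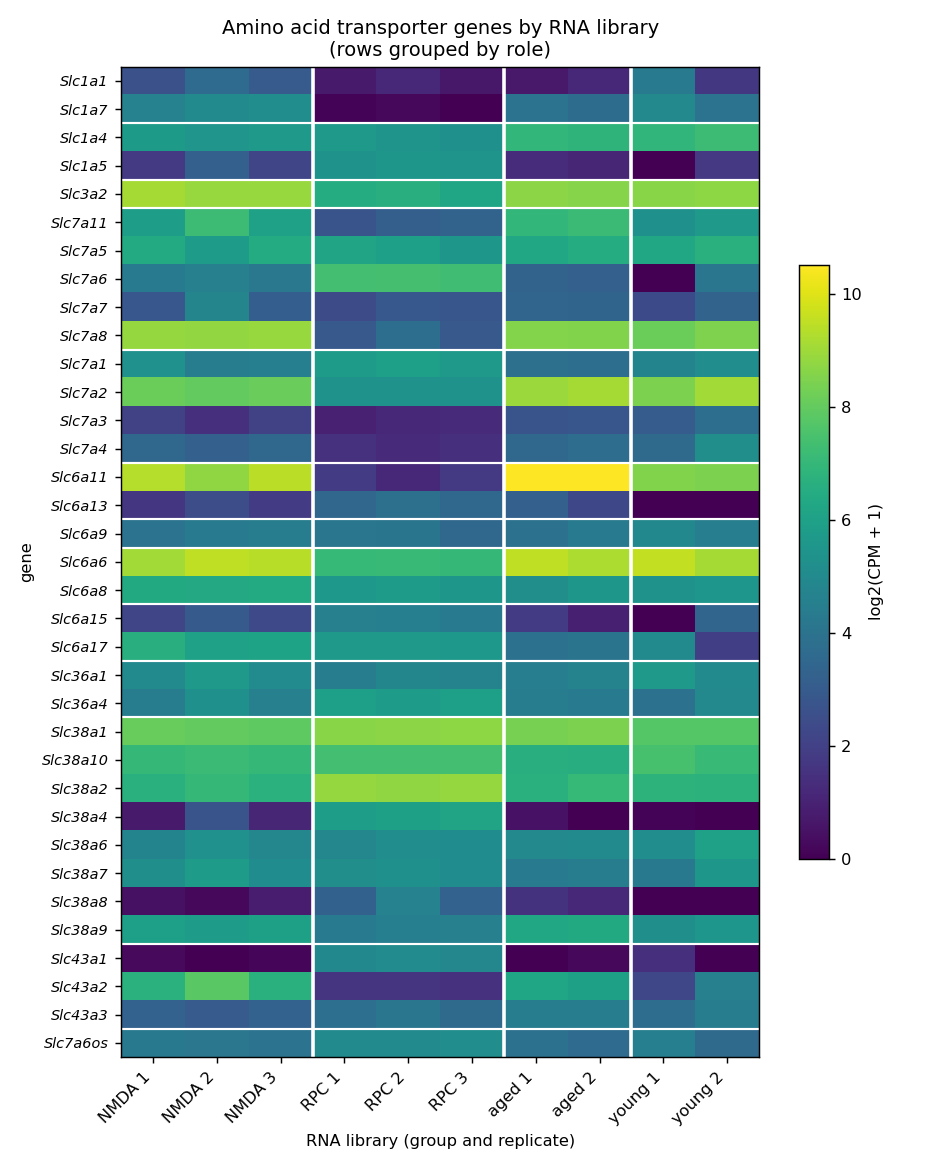
Level of 35 members with a group mean of at least 10 CPM, as log2(CPM + 1) in colour, with 1 row per gene (white lines separate roles) and 1 column per RNA library in the order NMDA, RPC, aged and young. The 3 RPC columns differ from all Müller columns in Slc6a11 and Slc7a8 (dark) and in Slc38a2 and Slc7a6 (bright), and young library 1 is at 0 (darkest) for Slc1a5, Slc7a6 and Slc6a15.

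Slc6a11, a carrier that clears the transmitter GABA from the space around synapses, was high in all Müller groups, highest in aged cells and lowest in progenitors. It lies on chromosome 6 (GRCm38, chr6:114131241-114249886). It had 655, 444 and 686 CPM after NMDA, 2.69, 1.26 and 2.45 CPM in RPCs, 1445 and 1473 CPM in aged cells and 365 and 345 CPM in young cells, and no 2 groups overlapped. The rise in aged over young cells (log2 change 2.23 ± 0.27, adjusted p = 0.00062; here and below ± is the standard error) was called under every alternative run, as was the lower level after NMDA than in aged cells (-1.38 ± 0.23, adjusted p = 0.0047). Levels in RPCs were below those in young (-7.48 ± 0.31, adjusted p = 3e-07) and aged cells (-9.71 ± 0.33, adjusted p = 8.1e-08). The rise after NMDA over young cells was smaller (0.85 ± 0.24, adjusted p = 0.02), and it was no longer called without NMDA library 1 (0.79, adjusted p = 0.055), without NMDA library 3 (0.74, adjusted p = 0.058), with upper-quartile scaling (0.64, adjusted p = 0.061) or with these groups fitted alone (adjusted p = 0.051). In sorted bulk samples, fewer cells of a type and less RNA per cell cannot be told apart.

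Slc6a13, a GABA and taurine carrier known from meninges and liver, was a low gene with 2.14, 4.6 and 2.67 CPM after NMDA, 9.99, 13.6 and 10.4 CPM in RPCs, 8.28 and 3.91 CPM in aged cells and 0 in both young libraries. No group overlapped the young libraries. Against young cells it was called higher after NMDA (adjusted p = 0.00056), in RPCs (adjusted p = 8.6e-05) and in aged cells (adjusted p = 0.00058). The betaine and GABA carrier Slc6a12 had 0.567, 1.57 and 1.06 CPM in the NMDA libraries, 0, 0.181 and 0.0874 CPM in RPCs, 0.767 and 1.08 CPM in aged cells and 0 in both young libraries. It was called higher after NMDA and in aged cells than in young cells, and lower in RPCs than in aged cells by 11.3-fold (95% interval 3.71 to 56.4) over pooled counts.

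The heavy chain Slc3a2 and its light chain partners Slc7a8 and Slc7a11 were all lower in progenitors than in Müller cells. Slc3a2 had 550.2, 477 and 473 CPM after NMDA, 91.4, 97.1 and 74.6 CPM in RPCs, 411 and 386 CPM in aged cells and 405 and 427 CPM in young cells. The RPC libraries were below all Müller libraries (log2 change -2.38 ± 0.12, adjusted p = 9.3e-07 against young and -2.50 ± 0.13, adjusted p = 5.3e-07 against aged cells). NMDA libraries were slightly above young ones (0.37 ± 0.13, adjusted p = 0.039). That call was lost with upper-quartile scaling (0.15, adjusted p = 0.37). It was also lost without NMDA library 1, NMDA library 3, young library 1 or young library 2 (adjusted p of 0.11, 0.052, 0.072 and 0.051). The other heavy chain, Slc3a1, averaged at most 3.47 CPM in any group.

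Slc7a8, an exchanger of neutral amino acids, had 461, 453 and 478 CPM after NMDA, 6.61, 12.9 and 6.73 CPM in RPCs, 379 and 367 CPM in aged cells and 283 and 355 CPM in young cells. The contrast with progenitors was large and without overlap (log2 change -5.33 ± 0.26, adjusted p = 6.3e-07 against young and -5.75 ± 0.26, adjusted p = 3.3e-07 against aged cells). The NMDA libraries lay above all others. The call against young cells (0.65 ± 0.23, adjusted p = 0.047) was lost with upper-quartile scaling (0.43, adjusted p = 0.18) and without any 1 of the 3 NMDA libraries or young library 1 (adjusted p of 0.087, 0.08, 0.1 and 0.11).

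Slc7a11, the cystine importer that exports glutamate, had 56.4, 148 and 64.2 CPM after NMDA, 5.72, 8.04 and 9.18 CPM in RPCs, 124 and 144 CPM in aged cells and 38.4 and 50.7 CPM in young cells. NMDA library 2, the library richest in microglial markers, was the highest of its group, and the part of these cells in that value was not tested. The gene was lower in RPCs than in young (log2 change -2.68 ± 0.41, adjusted p = 0.00053) and aged cells (-4.46 ± 0.42, adjusted p = 2.9e-05). It rose in aged over young cells (1.78 ± 0.44, adjusted p = 0.018), without overlap, but the call was lost without aged library 1 (1.88, adjusted p = 0.054) or aged library 2 (1.69, adjusted p = 0.077). NMDA against young cells did not pass the test (1.12 ± 0.41, adjusted p = 0.051), and without NMDA library 2 the change was 0.55, adjusted p = 0.089.

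Other light chains went their own ways. Slc7a6, an exchanger of cationic for neutral amino acids, had 18.8, 22.9 and 17.5 CPM after NMDA, 164, 168 and 157 CPM in RPCs, 9.26 and 8.28 CPM in aged cells and 0 and 16.6 CPM in young cells. The RPC libraries stood far above all Müller libraries (log2 change 4.23 ± 1.19, adjusted p = 0.014 against young and 3.90 ± 1.15, adjusted p = 0.018 against aged cells). The size against young cells depends on the 0 in young library 1, and without that library it was 3.19, adjusted p = 1.2e-06. Without young library 2, which leaves only that 0, the fitted change was 14.41, a value that depends on the prior count and is no estimate of size. The call against aged cells was lost without aged library 1 (3.98, adjusted p = 0.1) or aged library 2 (3.81, adjusted p = 0.12). Slc7a5, the large neutral amino acid exchanger, had 86.3, 53.9 and 88.1 CPM after NMDA, 70.4, 60.3 and 46.6 CPM in RPCs, 79 and 91.8 CPM in aged cells and 79.2 and 102 CPM in young cells, and all groups overlapped apart from RPCs with the aged and young ones. It was called lower in RPCs than in young (-0.74 ± 0.25, adjusted p = 0.029) and aged cells (-0.85 ± 0.25, adjusted p = 0.017). The call against young cells was lost without RPC library 2, RPC library 3 or young library 2 (adjusted p of 0.072, 0.089 and 0.11). That against aged cells was lost without aged library 2, RPC library 2 or RPC library 3 (0.11, 0.05 and 0.058). Slc7a7, which is known from macrophages and epithelia, had 6.24, 26.3 and 7.85 CPM after NMDA, 4.27, 6.42 and 6.03 CPM in RPCs, 9.87 and 9.48 CPM in aged cells and 4.08 and 9.06 CPM in young cells. Its 1 high value was in NMDA library 2, where microglial markers were also high, and no comparison of it passed the test.

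**Figure D2:**
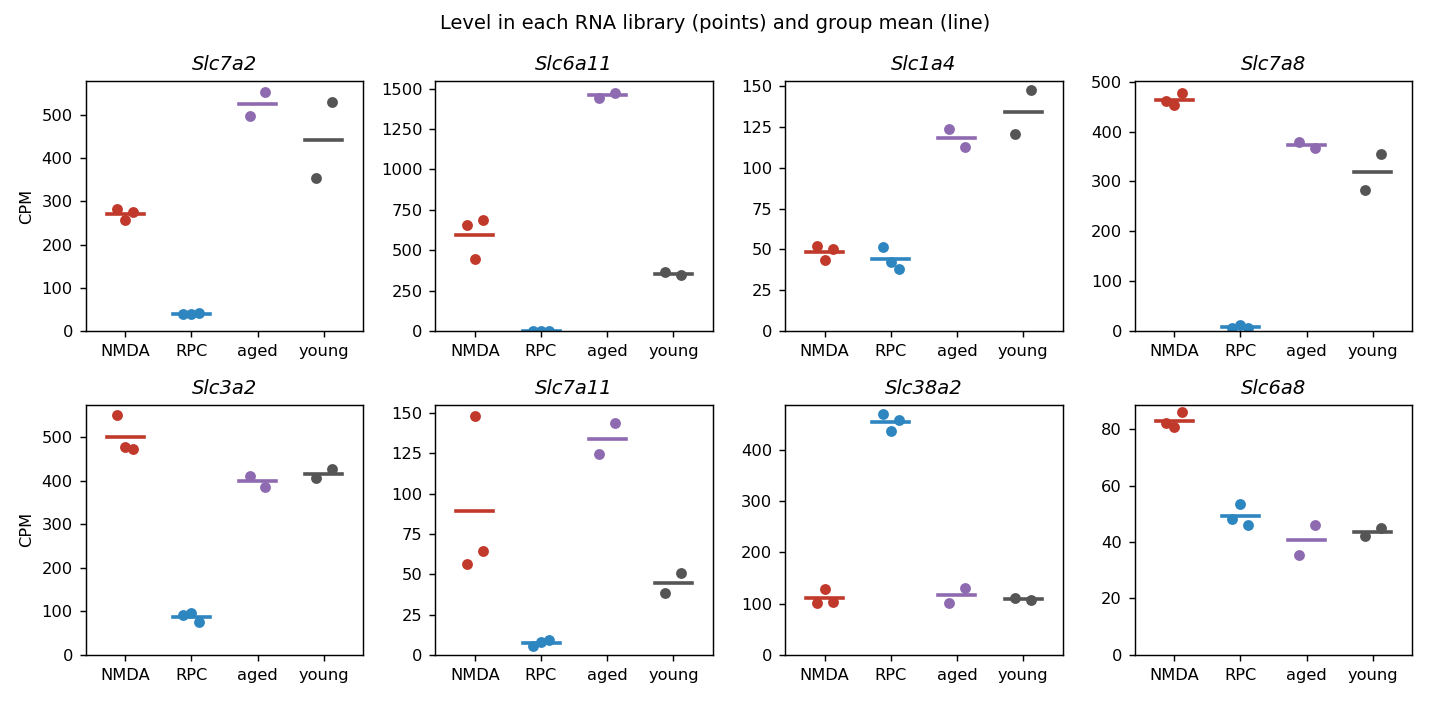
Level in CPM of 8 members in each RNA library (points) with the group mean (line), groups in the order NMDA, RPC, aged and young, with a linear axis from 0 for each gene. Slc7a2 and Slc1a4 are lower after NMDA than in aged and young cells, Slc6a8 is higher, Slc6a11 is highest in aged cells, and Slc7a8, Slc3a2 and Slc7a11 are low and Slc38a2 is high in RPCs.

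Among the cationic carriers, which bring in arginine, lysine and ornithine, Slc7a2 and Slc7a1 showed opposite contrasts between progenitors and aged Müller cells. Slc7a2 had 282, 257 and 276 CPM after NMDA, 39.8, 40.6 and 41.9 CPM in RPCs, 498 and 553 CPM in aged cells and 354 and 531 CPM in young cells. It was lower in RPCs than in young (log2 change -3.57 ± 0.16, adjusted p = 3.8e-07) and aged cells (-4.01 ± 0.16, adjusted p = 1.6e-07), with no overlap. The NMDA libraries lay below both the aged (-1.03 ± 0.15, adjusted p = 0.0022) and the young ones (-0.59 ± 0.15, adjusted p = 0.011), and without young library 2 the last change was -0.29. Slc7a1 had 39, 21.3 and 22.1 CPM after NMDA, 55.3, 61 and 50.3 CPM in RPCs, 13.8 and 12.8 CPM in aged cells and 26 and 34.8 CPM in young cells. RPC libraries were above all others, NMDA and young libraries overlapped, and aged libraries were the lowest. RPCs exceeded aged cells (1.74 ± 0.28, adjusted p = 0.00081) under every alternative run. The other calls of Slc7a1, RPC over young (0.74 ± 0.27, adjusted p = 0.041), aged under young (-0.996 ± 0.30, adjusted p = 0.037) and NMDA over aged (0.96 ± 0.27, adjusted p = 0.04), were each lost without single libraries. For RPC over young these were RPC libraries 1, 2 and 3 and young library 1 (adjusted p of 0.09, 0.098, 0.06 and 0.13). For aged under young these were aged libraries 1 and 2 and young library 2 (0.12, 0.17 and 0.063). For NMDA over aged these were NMDA library 1, where the change was 0.63, and aged libraries 1 and 2 (0.061, 0.16 and 0.22).

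The cationic carriers Slc7a3 and Slc7a4 were also lowest in progenitors. Slc7a3, an X-linked arginine carrier, had 3.09, 1.74 and 3.12 CPM after NMDA, 0.964, 1.26 and 1.4 CPM in RPCs, 5.73 and 5.99 CPM in aged cells and 7.37 and 12.8 CPM in young cells. Its groups did not overlap, and it was called lower after NMDA than in young cells (log2 change -1.81 ± 0.44, adjusted p = 0.01) and in RPCs than in young (-3.18 ± 0.46, adjusted p = 0.00038) and aged cells (-2.59 ± 0.45, adjusted p = 0.0012). The sex of the mice is not given. Slc7a4, a relative with no settled substrate, had 10.7, 8.25 and 10.6 CPM after NMDA, 1.86, 1.45 and 1.75 CPM in RPCs, 10.7 and 12.4 CPM in aged cells and 11.6 and 35.9 CPM in young cells. Only its contrasts of RPCs with young (-3.92 ± 0.47, adjusted p = 0.00012) and aged cells (-3.09 ± 0.46, adjusted p = 0.00045) passed the test.

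In family 1, the neutral exchangers Slc1a4 and Slc1a5, which both swap alanine, serine and cysteine, had contrary patterns. Slc1a4 had 52, 43.4 and 50.03 CPM after NMDA, 51.3, 42.5 and 38.4 CPM in RPCs, 124 and 112 CPM in aged cells and 121 and 148 CPM in young cells. NMDA and RPC libraries overlapped each other and lay below all aged and young libraries. It fell after NMDA against young (log2 change -1.36 ± 0.16, adjusted p = 0.00029) and aged cells (-1.37 ± 0.16, adjusted p = 0.00081) and was lower in RPCs than in young (-1.73 ± 0.16, adjusted p = 2.3e-05) and aged cells (-1.74 ± 0.16, adjusted p = 2.1e-05), each under every alternative run. The summed Müller markers were also lower after NMDA than in aged or young cells, a sum carried by glutamine synthetase (Glul, 2610 to 4586 CPM after NMDA, 25224 to 26429 CPM in aged and 26680 to 33663 CPM in young cells). Of the 10 markers 3 fell and 1 rose after NMDA against young cells, with a median log2 change of -0.26. Over all genes the median was 0.26, and 14.3% were called lower and 30.6% higher. The part of these markers in the fall of Slc1a4 was not tested. Slc1a5 had 2.46, 8.47 and 3.62 CPM after NMDA, 41, 46.3 and 42.1 CPM in RPCs, 1.53 and 1.2 CPM in aged cells and 0 and 2.36 CPM in young cells. The RPC libraries were above all Müller libraries, with log2 changes of 5.15 ± 1.24, adjusted p = 0.0065 against young and 4.65 ± 1.18, adjusted p = 0.0089 against aged cells. The size against young cells rests on young library 2, without which it was 12.49, a fitted value set by the 0 in young library 1. Against aged cells the call was lost without aged library 1 (4.84, adjusted p = 0.063) or aged library 2 (4.48, adjusted p = 0.075).

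The excitatory amino acid carriers of the set were low. Slc1a7, a glutamate carrier known from photoreceptor and bipolar cell terminals, had 24.1, 31.6 and 35.1 CPM after NMDA, 0.0689, 0.181 and 0 CPM in RPCs, 14.9 and 12 CPM in aged cells and 30.4 and 15.1 CPM in young cells. Its 3 pooled counts in RPCs put RPCs lower than young cells by 299-fold (95% interval 102 to 1456) and lower than aged cells by 167-fold (95% interval 57 to 812), with adjusted p of 8.1e-06 and 1.1e-05. No RPC library overlapped a Müller library. All 10 photoreceptor markers were also called lower in RPCs than in young and aged cells, and their part in this result was not tested. Slc1a1, a neuronal glutamate carrier, had 5.04, 11.8 and 7.01 CPM after NMDA, 0.689, 1.26 and 0.612 CPM in RPCs, 0.658 and 1.29 CPM in aged cells and 18.7 and 2.27 CPM in young cells. The young libraries bracket the NMDA ones, and the calls of aged under young (-3.25 ± 0.97, adjusted p = 0.038) and RPC under young (-3.77 ± 0.86, adjusted p = 0.0051) rest on young library 1. Without it the changes were -0.999, adjusted p = 0.25 and -1.52, adjusted p = 0.059. The aged call was lost too without aged library 1 (-2.84, adjusted p = 0.2) or aged library 2 (-3.80, adjusted p = 0.11).

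Of the osmolyte and energy carriers, the creatine carrier Slc6a8 rose after NMDA and the taurine carrier Slc6a6 differed in progenitors. Slc6a8 had 82.3, 80.7 and 86.2 CPM after NMDA, 48.3, 53.6 and 46.1 CPM in RPCs, 35.5 and 45.9 CPM in aged cells and 42 and 44.8 CPM in young cells. All NMDA libraries were above all others, which lay close together. The rise over young (log2 change 1.04 ± 0.14, adjusted p = 0.00053) and aged cells (0.95 ± 0.13, adjusted p = 0.0022) was called under every alternative run for single genes. Its size against aged cells was 1.93-fold, under the 2-fold minimum. The gene lies on the X chromosome (GRCm38, chrX:73673133-73682502), and the sex of the mice is not given. Slc6a6 had 529, 726 and 679 CPM after NMDA, 133, 139 and 127 CPM in RPCs, 740.4 and 602 CPM in aged cells and 761 and 547 CPM in young cells. The 3 Müller groups overlapped one another, while RPCs were lower than young (-2.43 ± 0.19, adjusted p = 9.4e-06) and aged cells (-2.65 ± 0.19, adjusted p = 4.8e-06). Photoreceptor markers were also lower in RPCs than in the Müller groups, as given above, and their part in this result was not tested.

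The remaining family 6 carriers gave few calls. Slc6a9 is a glycine carrier that is also on the list of inner retinal neuron markers used below. It had 14.9, 18.5 and 21.3 CPM after NMDA, 16.3, 16.2 and 10.9 CPM in RPCs, 14.2 and 18.6 CPM in aged cells and 29.3 and 21.9 CPM in young cells. It was called only in RPCs under young cells (log2 change -0.95 ± 0.28, adjusted p = 0.016), and not without RPC library 3 (-0.78, adjusted p = 0.054) or young library 1 (-0.70, adjusted p = 0.059). Slc6a17, a vesicular neutral amino acid carrier of neurons, had 95.4, 64.1 and 67.1 CPM after NMDA, 49.5, 50.7 and 48 CPM in RPCs, 14.6 and 15.5 CPM in aged cells and 30.9 and 2.86 CPM in young cells. NMDA libraries were above all others and the young libraries differed from each other by more than the aged ones did. The call after NMDA over young (2.24 ± 0.73, adjusted p = 0.035) was lost without NMDA library 1, 2 or 3 (adjusted p of 0.084, 0.06 and 0.063). Its size was 4.85 without young library 1 and 1.38 without young library 2. Slc6a15, a neuronal carrier of branched-chain amino acids and proline, had 3.53, 6.96 and 3.95 CPM after NMDA, 22.7, 22.2 and 19.7 CPM in RPCs, 2.58 and 0.873 CPM in aged cells and 0 and 9.75 CPM in young cells. RPC libraries were above all others, but no comparison of Slc6a15 passed the test (RPC against aged, 3.32 ± 1.47, adjusted p = 0.085).

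Among the transporter roles, the listed sodium-coupled carriers of family 38 alone had a larger sum in every RPC library than in every Müller library. The sums were 1191, 1204 and 1217 CPM in RPCs against 623, 683 and 596 CPM after NMDA, 662 and 710.5 CPM in aged and 588 and 610.1 CPM in young cells. They leave out the glutamine carrier Slc38a3, so they do not describe the whole family. Of the 10 listed genes 9 were tested, and 5 rose and 1 fell in RPCs against aged cells, while 5 rose and 2 fell against young cells. Of all genes tested, 26.3% were called higher and 29% lower in RPCs against aged cells. Against young cells these shares were 35.9% and 24.9%. Slc38a2, a system A carrier that starved cells induce, had 101, 129 and 104 CPM after NMDA, 470.1, 437 and 459 CPM in RPCs, 102 and 130.3 CPM in aged cells and 112 and 108 CPM in young cells. The 3 Müller groups overlapped and every RPC library was far above them (log2 change 1.92 ± 0.16, adjusted p = 1.2e-05 against young and 1.65 ± 0.15, adjusted p = 2.4e-05 against aged cells). Slc38a1, the related system A carrier, had 270.4, 254 and 239 CPM after NMDA, 405, 419 and 423 CPM in RPCs, 331 and 351 CPM in aged cells and 211 and 212 CPM in young cells, so its groups did not overlap. RPCs exceeded young cells (0.84 ± 0.09, adjusted p = 4.9e-05) while the scaled difference from aged cells did not pass the test (-0.03 ± 0.08, adjusted p = 0.75). Aged cells exceeded young (0.88 ± 0.09, adjusted p = 0.00028), and NMDA cells lay below aged (-0.51 ± 0.08, adjusted p = 0.0042), a call lost without aged library 2 (-0.47, adjusted p = 0.054). The excess of NMDA over young cells (0.37 ± 0.09, adjusted p = 0.0078) was lost with upper-quartile scaling (0.15, adjusted p = 0.2).

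Slc38a9, the lysosomal arginine sensor that signals to mTORC1, was higher in aged and NMDA Müller cells than in young ones. It had 59.6, 55.3 and 62.6 CPM after NMDA, 19.1, 22.4 and 23.2 CPM in RPCs, 78.1 and 82.3 CPM in aged cells and 36.4 and 45 CPM in young cells, without overlap between any 2 groups. Log2 changes were 0.65 ± 0.14, adjusted p = 0.0051 for NMDA and 1.17 ± 0.15, adjusted p = 0.00075 for aged against young cells. RPCs were lower than young (-1.05 ± 0.13, adjusted p = 0.00018) and aged cells (-2.22 ± 0.13, adjusted p = 1.6e-06). NMDA under aged (-0.52 ± 0.13, adjusted p = 0.025) was lost without any 1 of NMDA libraries 1, 2 and 3 and aged libraries 1 and 2 (adjusted p of 0.063, 0.07, 0.052, 0.11 and 0.16).

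Slc38a4 and Slc38a8 were highest in progenitors. Slc38a4, a carrier of neutral amino acids known from liver and placenta, had 0.693, 5.67 and 1.17 CPM after NMDA, 58.6, 62.6 and 68.9 CPM in RPCs, 0.439 and 0 CPM in aged cells and 0.0658 and 0 CPM in young cells. RPCs were called higher than young cells (adjusted p = 0.00098), which held a single count. It exceeded aged cells by a log2 change of 7.78 ± 1.37, adjusted p = 0.0013. Without aged library 1, which leaves only a library at 0, the fitted value was 12.84. After NMDA it was called higher than in young cells with an adjusted p of 0.026, and NMDA library 2 was the highest. The adjusted p was 0.054 without that library, 0.072 without young library 1 and 0.061 without young library 2. Slc38a8, a glutamine carrier in which human mutations impair foveal development, had 0.378, 0.168 and 0.723 CPM after NMDA, 8.61, 24.3 and 8.83 CPM in RPCs, 1.92 and 1.29 CPM in aged cells and 0 in both young libraries. RPC library 2 was the highest. Other markers were highest in that library too, with pigment cell markers (6 genes) at 40.7, 82.2 and 31.1 CPM, lens markers (5 genes) at 2.27, 55.3 and 1.84 CPM and pericyte and fibroblast markers (7 genes) at 84.9, 191 and 108 CPM in the RPC libraries. Their part in this result was not tested. Against young cells it was called higher after NMDA (adjusted p = 0.015, but 0.079 without young library 1), in RPCs (adjusted p = 0.00038) and in aged cells (adjusted p = 0.0063). RPCs exceeded aged cells by a log2 change of 2.77 ± 0.78, adjusted p = 0.018, a call lost without aged library 1, aged library 2 or RPC library 2 (adjusted p of 0.072, 0.12 and 0.063).

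The other members of family 38 differed less. Slc38a10 had 127, 144 and 127 CPM after NMDA, 164, 164 and 166 CPM in RPCs, 99.3 and 92.2 CPM in aged cells and 175 and 135 CPM in young cells. It was called lower in aged than in young cells (log2 change -0.51 ± 0.14, adjusted p = 0.029) and higher in RPCs than in aged cells (0.46 ± 0.13, adjusted p = 0.015). Without aged library 1 or 2 the first call had adjusted p of 0.091 and 0.17 and the second 0.052 and 0.11, and without young library 1 the first was -0.28, adjusted p = 0.089. Slc38a6 had 26.2, 39.1 and 28.3 CPM after NMDA, 28.4, 34.9 and 33.9 CPM in RPCs, 30.4 and 32.2 CPM in aged cells and 35.1 and 64.1 CPM in young cells. Its only call, RPC under young (-0.74 ± 0.26, adjusted p = 0.035), was lost without young library 2 (-0.27, adjusted p = 0.29) and without RPC libraries 1, 2 or 3 (adjusted p of 0.1, 0.07 and 0.07). Slc38a7, a glutamine carrier, had 36.6, 55.6 and 33.9 CPM after NMDA, 36.1, 37.4 and 33.8 CPM in RPCs, 19.1 and 21.1 CPM in aged cells and 18.2 and 46.5 CPM in young cells, and no comparison of it passed the test.

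The proton-coupled carriers of family 36, among them exporters of small amino acids from lysosomes, differed by member. Slc36a4 had 20.9, 37.6 and 22.8 CPM after NMDA, 60.9, 54.2 and 60.5 CPM in RPCs, 21 and 19.6 CPM in aged cells and 14.7 and 29.9 CPM in young cells. RPC libraries were above all others (log2 change 1.27 ± 0.34, adjusted p = 0.011 against young and 1.21 ± 0.34, adjusted p = 0.014 against aged cells), the second call being lost without aged library 1 (1.27, adjusted p = 0.068) or aged library 2 (1.15, adjusted p = 0.089). Slc36a1 had 31.3, 51.4 and 33.1 CPM after NMDA, 20.4, 27.4 and 24.8 CPM in RPCs, 21.8 and 25 CPM in aged cells and 51.5 and 30.5 CPM in young cells. It was called in RPCs under young cells alone (-0.90 ± 0.29, adjusted p = 0.023), and not without RPC library 1 (-0.80, adjusted p = 0.076), RPC library 3 (-0.92, adjusted p = 0.056) or young library 1 (-0.45, adjusted p = 0.18).

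In family 43, Slc43a1 was highest in progenitors and Slc43a2 in Müller cells after NMDA and with age. Slc43a1, a facilitative carrier of large neutral amino acids, had 0.189, 0 and 0.111 CPM after NMDA, 28.8, 32.4 and 28.3 CPM in RPCs, 0 and 0.181 CPM in aged cells and 1.64 and 0 CPM in young cells. RPC libraries were above all Müller libraries (log2 change 4.96 ± 1.43, adjusted p = 0.015 against young and 7.98 ± 1.69, adjusted p = 0.0036 against aged cells). Without young library 1, the single young library with counts, the fitted change was 11.92 and no measure of size. Blood markers were also higher in RPCs than elsewhere, as given above, and their part in this result was not tested. Slc43a2, a carrier of the same substrates, had 103, 228 and 102 CPM after NMDA, 2, 2.08 and 1.84 CPM in RPCs, 73.1 and 61.9 CPM in aged cells and 3.75 and 23.3 CPM in young cells. NMDA and aged libraries were above all young libraries, with log2 changes of 3.56 ± 0.71, adjusted p = 0.0041 for NMDA and 2.55 ± 0.71, adjusted p = 0.028 for aged against young cells. Without young library 2 these were 5.36 and 4.34, and the aged call was lost without aged library 1 (2.42, adjusted p = 0.099) or aged library 2 (2.67, adjusted p = 0.075). NMDA library 2, rich in microglial markers, was the highest, and without it the NMDA change was 3.06, adjusted p = 0.01. RPCs were below aged (-5.41 ± 0.71, adjusted p = 0.00022) and young cells (-2.86 ± 0.70, adjusted p = 0.0071), and the call against young cells was lost without young library 2 (-1.07, adjusted p = 0.14). Slc43a3, a purine base carrier, had 8.89, 7.13 and 8.85 CPM after NMDA, 13.4, 16.6 and 11.4 CPM in RPCs, 20.6 and 20.4 CPM in aged cells and 12.4 and 20.3 CPM in young cells. It was called lower after NMDA than in young (-0.87 ± 0.28, adjusted p = 0.033) and aged cells (-1.39 ± 0.28, adjusted p = 0.0095) and in RPCs than in aged cells (-0.89 ± 0.28, adjusted p = 0.023). Without aged libraries 1 and 2 in turn, the adjusted p was 0.066 and 0.068 for NMDA against aged, and 0.096 and 0.088 for RPC against aged cells. The call of NMDA against young cells was lost without NMDA library 1, 2 or 3 or young library 2 (adjusted p of 0.061, 0.082, 0.065 and 0.097).

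**Figure D3:**
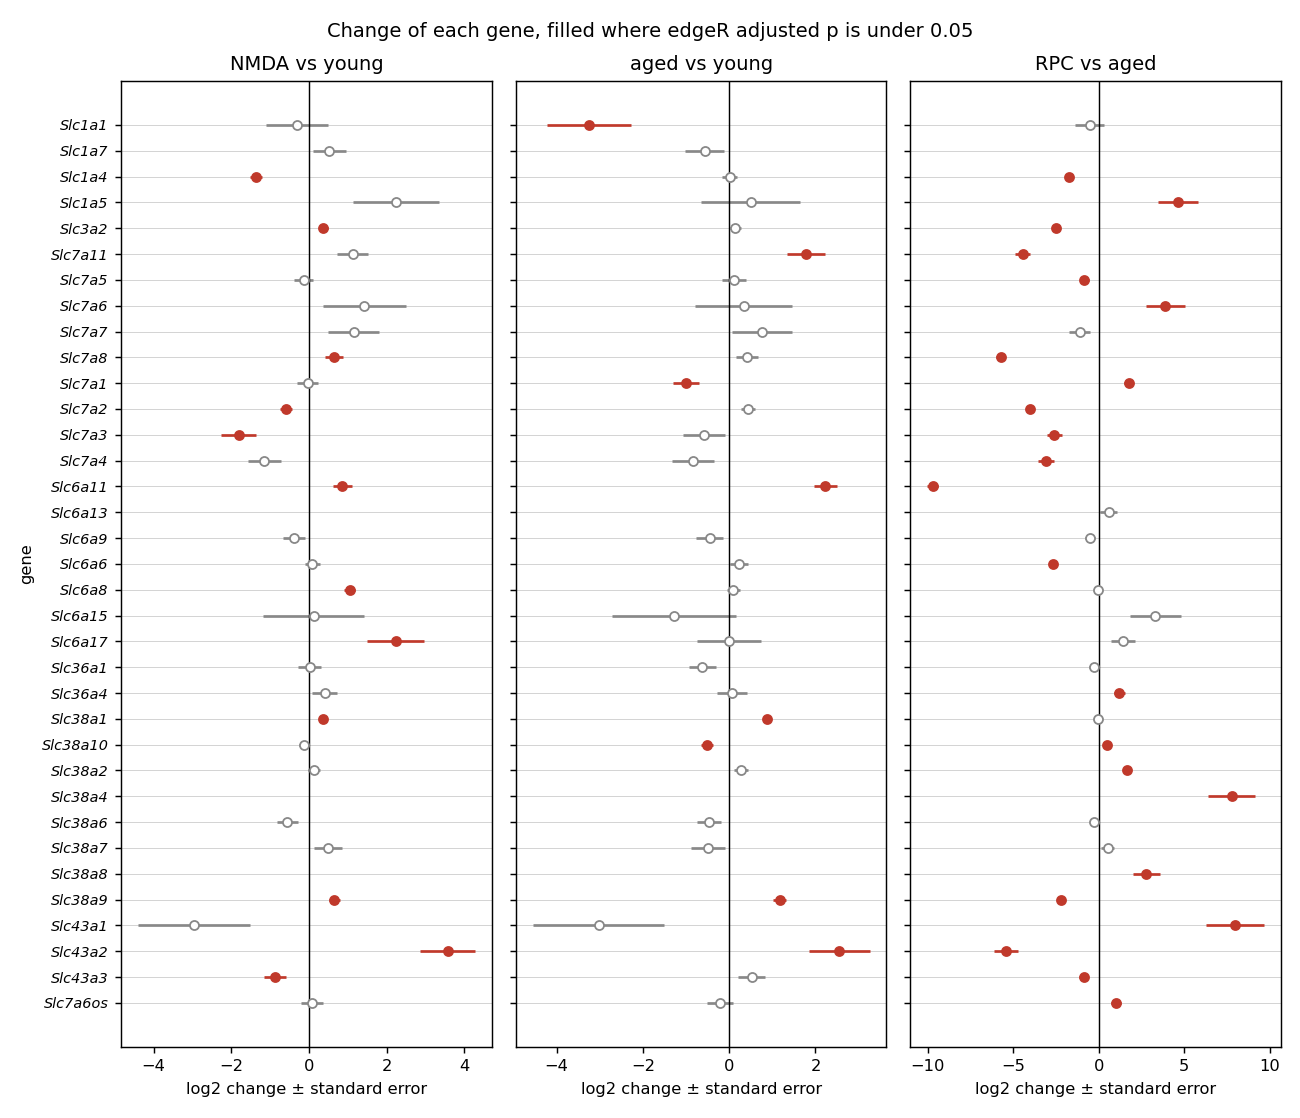
Log2 change with its standard error (x axis, own range per panel) for 35 members with a group mean of at least 10 CPM, in NMDA against young, aged against young and RPC against aged cells. Filled points have an edgeR adjusted p under 0.05, and genes with at most 3 counts pooled in 1 of the groups compared have no point. Slc7a3 and Slc1a4 lie left of 0 and Slc6a8 and Slc43a2 right of it in the first panel, Slc6a11 lies right in the second, and Slc6a11, Slc7a8 and Slc43a2 lie far left and Slc43a1 and Slc38a4 far right in the third.

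The 25 members below 10 CPM added few calls. The 7 without a count were Slc7a12, Slc7a13, Slc6a3, Slc6a4, Slc6a18, Slc36a3 and Slc6a19os, and the highest group means of the other 18 ran between 0.0291 CPM for Slc7a15 and 5.69 CPM for Slc7a14. Slc6a5, the glycine carrier of glycinergic neurons, had 1.7, 3.76 and 2.78 CPM after NMDA, 0, 0.0904 and 0 CPM in RPCs, 0.521 and 1.17 CPM in aged cells and 0 in young cells. It was called higher after NMDA and in aged cells than in young cells, and lower in RPCs than in aged cells by 30.8-fold (95% interval 5.32 to 1238). Of 12 markers of inner retinal neurons, 3 were called higher after NMDA and 3 in aged cells, each against young cells. Of all genes tested, 30.6% and 21.1% were called higher in these comparisons. The marker Slc32a1, the vesicular carrier of GABA and glycine, had 2.71, 6.79 and 3.39 CPM after NMDA and 0.62, 0.542 and 0.437 CPM in RPCs. It had 0.63 and 2.74 CPM in aged cells and 0 in both young libraries. The 12 markers summed to 169, 272 and 193 CPM after NMDA, 96.3, 105 and 92.7 CPM in RPCs, 181 and 209 CPM in aged and 184 and 111 CPM in young cells, and their part in the result for Slc6a5 was not tested. Slc6a2, the noradrenaline carrier, had 0.441, 2.97 and 1 CPM after NMDA and was called higher there than in young cells, which were at 0, with its highest value in NMDA library 2. Slc38a5 had 1.1, 1.26 and 0.175 CPM in RPCs, and 0 in all aged and young libraries. It was at least 20.1-fold higher in RPCs than a floor of 3 counts pooled over the aged group, which covers counting error only. Blood markers were at 1839, 510.4 and 295 CPM in these RPC libraries, and their part was not tested. Slc7a6os, a gene next to Slc7a6 that encodes no transporter, had 18, 17.2 and 15.1 CPM after NMDA, 32, 31.6 and 34.3 CPM in RPCs, 14.2 and 11.7 CPM in aged cells and 22.4 and 11.5 CPM in young cells. It was called higher in RPCs than in young (log2 change 0.80 ± 0.29, adjusted p = 0.037) and aged cells (1.01 ± 0.29, adjusted p = 0.015). The call against young cells was lost without young library 2 (0.40, adjusted p = 0.076) or RPC libraries 1, 2 or 3 (adjusted p of 0.081, 0.065 and 0.09), and that against aged cells without aged library 1 (adjusted p of 0.051) or 2 (0.11).

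Genes that sense amino acid supply or use what the carriers bring were counted from lists of these pathways, which were drawn up with earlier results of these data known. Of 27 tested genes of the amino acid response through Atf4, 7 rose and 3 fell after NMDA against young cells, 13 rose and 9 fell in RPCs against young cells, 5 rose in aged against young cells, and 10 rose and 9 fell in RPCs against aged cells. Of all genes, 44.9%, 60.8%, 27% and 55.4% were called in these comparisons. Their median log2 changes were 0.24, 0.31, -0.09 and 0.03 in these comparisons, beside 0.26, 0.30, 0.13 and 0.02 over all genes. Gars, the glycyl-tRNA synthetase, had 95.3, 79.4 and 73.6 CPM after NMDA, 116, 115 and 117 CPM in RPCs, 36.4 and 38.1 CPM in aged cells and 17.6 and 18.8 CPM in young cells (log2 change 2.29 ± 0.13, adjusted p = 8.2e-06 for NMDA against young). Nupr1, a stress-induced nuclear protein, had 308, 361 and 309 CPM after NMDA, 0.138, 0.0904 and 0.175 CPM in RPCs, 29.3 and 35.6 CPM in aged cells and 17.9 and 22 CPM in young cells (4.14 ± 0.16, adjusted p = 1.6e-06). Cebpg, a partner of Atf4, had 18.7, 15 and 17.7 CPM after NMDA, 113, 98.9 and 125 CPM in RPCs, 61.7 and 62.6 CPM in aged cells and 48.6 and 50.4 CPM in young cells, and so fell after NMDA against young cells (-1.43 ± 0.14, adjusted p = 0.00013) while Gars and Nupr1 rose.

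Of 31 tested genes of amino acid sensing by mTORC1, the kinase complex that drives growth, 10 rose and 5 fell after NMDA, 8 rose and 9 fell in RPCs and 4 rose and 3 fell in aged cells, each against young cells. Their median log2 changes were 0.17, -0.04 and 0.10, beside 0.26, 0.30 and 0.13 over all genes. Of all genes, 44.9%, 60.8% and 27% were called in these comparisons. Deptor, an inhibitor of the complex, had 145, 116 and 158 CPM after NMDA, 5.44, 5.33 and 5.33 CPM in RPCs, 289 and 283 CPM in aged cells and 315 and 282 CPM in young cells (log2 change -6.05 ± 0.16, adjusted p = 3.3e-08 for RPC against aged). Seh1l, a subunit of the GATOR complex and the nuclear pore, had 47.5, 48.6 and 43.8 CPM after NMDA, 186, 179 and 187 CPM in RPCs, 32.7 and 36.8 CPM in aged cells and 31.8 and 37.9 CPM in young cells (2.08 ± 0.12, adjusted p = 1.1e-06). Mtor itself had 139.8, 141 and 143 CPM after NMDA, 26.9, 24.4 and 23.9 CPM in RPCs, 152 and 152 CPM in aged cells and 18.2 and 28.5 CPM in young cells (2.71 ± 0.18, adjusted p = 1.6e-05 for NMDA against young), so RPC and young libraries were both low.

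Of 9 genes of glutathione synthesis and breakdown, which use the cysteine that Slc7a11 brings in, 6 rose after NMDA, 5 rose and 2 fell in RPCs and 3 rose in aged cells, each against young cells. Of all genes, 30.6%, 35.9% and 21.1% were called higher in these comparisons. The median log2 changes of the 9 were 1.75, 0.59 and 1.52, beside 0.26, 0.30 and 0.13 over all genes, with 2 of the 9 (Chac2 and Anpep) at 0 in both young libraries. Gclc, the catalytic subunit of the rate-limiting ligase, had 54.6, 47.4 and 51.6 CPM after NMDA, 52.9, 56.7 and 54 CPM in RPCs, 67.4 and 64.7 CPM in aged cells and 33.3 and 32.9 CPM in young cells. The young libraries were the lowest without overlap, with log2 changes of 0.74 ± 0.11, adjusted p = 0.001 for NMDA, 0.59 ± 0.11, adjusted p = 0.0016 for RPCs and 1.19 ± 0.12, adjusted p = 0.00021 for aged against young cells. Among 33 enzymes of amino acid metabolism, 11 rose and 5 fell after NMDA, 10 rose and 15 fell in RPCs and 4 rose and 3 fell in aged against young cells, with median log2 changes of 0.08, -0.47 and -0.13, where 44.9%, 60.8% and 27% of all genes were called. Abat, the GABA transaminase that breaks down the GABA taken up, had 358, 283 and 387 CPM after NMDA, 35.7, 34.3 and 36.1 CPM in RPCs, 485 and 517 CPM in aged cells and 218 and 164 CPM in young cells. It was higher in aged than in young cells (1.58 ± 0.18, adjusted p = 0.00046) and lower in RPCs than in aged cells (-4.14 ± 0.17, adjusted p = 2.1e-07). The proline enzymes Aldh18a1 (synthesis) and Prodh (breakdown) moved apart after NMDA. There were 64.7, 48 and 59.2 CPM of Aldh18a1 after NMDA against 12.7 and 11.6 CPM in young cells (2.34 ± 0.16, adjusted p = 2e-05), and 43.5, 28.1 and 39.7 CPM of Prodh after NMDA against 125 and 238 CPM in young cells (-2.18 ± 0.27, adjusted p = 0.00037). Ass1, which makes the arginine precursor argininosuccinate, had 2.2, 3.43 and 1.75 CPM in RPCs against 88.2 and 83.2 CPM in aged cells (-5.45 ± 0.23, adjusted p = 2.1e-07).

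Of 8 genes of taurine and creatine synthesis, 2 rose and 2 fell after NMDA, 2 rose and 2 fell in RPCs and 2 rose in aged cells, each against young cells, with median log2 changes of 0.86, -0.08 and 0.20. Ado, an oxygenase that makes the taurine precursor hypotaurine from cysteamine, had 6.68, 6.73 and 6.07 CPM after NMDA, 113, 104 and 106 CPM in RPCs, 30.0 and 23.9 CPM in aged cells and 24.8 and 23.5 CPM in young cells. It fell after NMDA (-1.79 ± 0.14, adjusted p = 4.4e-05) and was higher in RPCs (2.02 ± 0.15, adjusted p = 7.7e-06), each against young cells. Among 21 tested amino acid and peptide carriers of other families, 8 rose and 5 fell after NMDA, 7 rose and 10 fell in RPCs and 4 rose and 1 fell in aged cells against young cells, with median log2 changes of 0.10, -0.62 and 0.01. For both lists, all genes had medians of 0.26, 0.30 and 0.13, and 44.9%, 60.8% and 27% of them were called. Slc15a2, a di- and tripeptide carrier of glia, had 165, 120.0 and 149 CPM after NMDA, 19.9, 14.4 and 16.6 CPM in RPCs, 375 and 352.7 CPM in aged cells and 318 and 544 CPM in young cells (-1.46 ± 0.23, adjusted p = 0.0013 for NMDA against young and -4.74 ± 0.26, adjusted p = 8.1e-07 for RPC against aged). The glutamate carrier of photoreceptor vesicles, Slc17a7, was at 228 to 353.3 CPM after NMDA, 0.0904 to 0.262 CPM in RPCs, 167 to 254 CPM in aged and 127 to 253 CPM in young cells, beside the photoreceptor sums given above.

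Methylation was read around 30 of the 61 members, in windows of 1000 bases either side of an annotated start for 21 genes and, for 9 genes with no listed start, of the gene end with more measured positions, which is not known to be the start. A window needed at least 5 positions with at least 10 reads in all 12 libraries, and no window of an X-linked member met this. Levels are methylated reads in percent of all reads at these positions. Most windows were nearly unmethylated in every group: 13 stayed under 5% in every library and 25 under 10% in every group mean. The young libraries were slightly above the others at such windows, and over all 10751 windows the median difference was -2.45 points for NMDA, -1.91 points for RPC and -2.86 points for aged against young cells. A window was called at an adjusted p under 0.05 with a difference of at least 10 points. This gave 2 member windows for NMDA against young (1.52% of all windows were called), 2 for RPC against young (3.13%) and 1 for aged against young (0.688%).

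At a listed start of Slc7a7 (chromosome 14, 13 positions), methylation was 32, 21 and 34.7% after NMDA and 7.69, 10.4 and 6.91% in RPCs. It was 25.8, 20.4 and 17.6% in aged cells and 35.6, 23.9 and 20.7% in young cells. This start lies inside the annotated gene span, so other starts may exist. The RPC libraries were below all Müller libraries, and the difference from young cells was -19.6 points, adjusted p = 0.0016. That call was kept under every alternative run. The RNA of Slc7a7 in RPCs against young cells did not pass the test (-0.36 ± 0.64, adjusted p = 0.65). At the start of Slc6a16 (chromosome 7, 20 positions), a gene with at most 0.723 CPM in any library, methylation was 17.8, 33.7 and 30.3% after NMDA, 4.49, 5.03 and 9.05% in RPCs, 18.6, 7.68 and 16.6% in aged cells and 11.3, 18 and 10.5% in young cells. It was higher after NMDA than in young cells (15.5 points, adjusted p = 0.0021), though NMDA library 1 and a young library overlapped, and without NMDA library 2 the difference was 10.7 points, adjusted p = 0.058. Near an end of Slc6a7 (chromosome 18, 22 positions), a proline carrier gene with at most 0.167 CPM in any library, methylation was 31.6, 23.4 and 20.3% after NMDA, 23.1, 26.3 and 35% in RPCs, 18.8, 21.8 and 27.4% in aged cells and 6.61, 15.9 and 15.5% in young cells. All young libraries were below all others, with differences of 14.5 points, adjusted p = 0.0021, for NMDA, 18.2 points, adjusted p = 0.00095, for RPCs and 11.8 points, adjusted p = 0.0065, for aged cells. These turned to -0.42, -1.74 and -2.6 points with positions of at least 20 reads and to -1.23, -2.54 and -2.95 points in windows of 500 bases either side. Without young library 1 the NMDA and aged differences were 9.08 and 6.29 points and neither was called, while that of RPCs was 12.7 points, adjusted p = 0.0054. All 3 Slc6a7 calls thus rest on the outer or thinly covered positions, and those of NMDA and aged cells on that library as well.

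The windows of several genes with wide RNA contrasts gave no call. RNA of Slc38a4 was at 58.6 to 68.9 CPM in RPCs and under 6 CPM elsewhere. A listed start of it was methylated at 91.3 ± 1.45% after NMDA, 93.6 ± 1.27% in RPCs, 91.7 ± 2.12% in aged cells and 93 ± 2.55% in young cells (SD, n = 3 each, 8 positions). This start (chr15:97020359) lies well inside the gene span of 96994816 to 97055956. Other starts of Slc38a4 may exist, and their methylation is not given here. A listed start of Slc43a1, also inside the gene span, was at 0.984 ± 0.166% after NMDA, 1.24 ± 1.1% in RPCs, 0.489 ± 0.409% in aged and 3.07 ± 0.102% in young cells. RNA of Slc43a1 was at 28.3 to 32.4 CPM in RPCs and at most 1.64 CPM elsewhere. The start of Slc7a8, shown above, was at 1.27 ± 0.586% after NMDA, 3.09 ± 0.819% in RPCs, 0.552 ± 0.267% in aged and 5.62 ± 0.791% in young cells. That of Slc3a2 was at 0.54 ± 0.105% after NMDA, 1.36 ± 0.554% in RPCs, 0.332 ± 0.0431% in aged and 4.85 ± 0.44% in young cells. The start of Slc7a11 was intermediate, at 7.47 ± 1.38% after NMDA, 11.5 ± 2.43% in RPCs, 6.5 ± 0.781% in aged and 12.1 ± 0.319% in young cells. Differences under 10 points could pass the p threshold, such as that of Slc7a11 (-5.44 points, adjusted p = 0.00048) and of Slc3a2 (-4.48 points, adjusted p = 4.2e-07) in aged against young cells. Young means were the highest in each of these 4 low windows, and the shift of young libraries over all windows ran the same way.

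**Figure D4:**
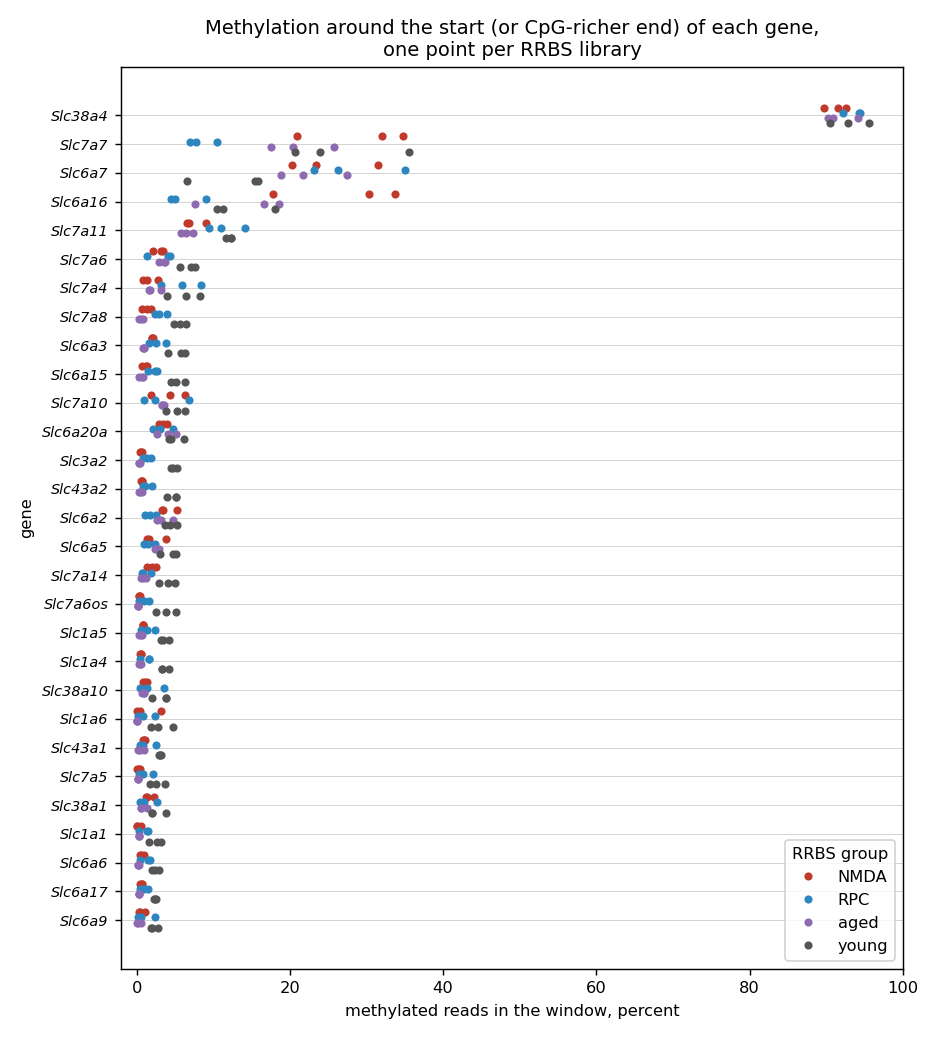
Percent of methylated reads in the window of 29 members measured by RRBS (x axis), 1 point per library in the colour of its group, with genes ordered by their highest group mean. Slc38a4 lies near 90% in all groups, Slc7a7, Slc6a7, Slc6a16 and Slc7a11 are intermediate, and the others lie under 10%, mostly with the young points to the right.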

How the data were processed

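RNA-seq gave deposited read counts per gene for 10 libraries, and RRBS gave, per the file headers, the percent of methylated and unmethylated reads and the coverage in read counts at each CpG position of 12 libraries. The authors listed only positions with at least 10 reads, as the deposited coverage columns show. The submitters' processing notes name HISAT2 2.0.4, Trim Galore 0.4.3, Bismark 0.16.3, methylKit 1.4.0 and builds mm10 and GRCm38, without roles, and the counting tool is not given in the sources used here. No column of another series was used. Of the members, 1 is not reported here by name and is left out of the figures, while counts over the members include it. The members and the gene lists were chosen with earlier results of these data known.

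Counts were tested in R 4.3.3 with edgeR 4.0.16 (quasi-likelihood, TMM scaling, filterByExpr, all 4 groups in 1 fit, 6 residual degrees of freedom, common biological coefficient of variation 0.411). P-values were adjusted by Benjamini-Hochberg over all 18931 genes, and adjusted p in the text without another name are from that fit. Members with a group mean of at least 10 CPM are described by library, as are members called below it. Methylated and unmethylated read counts were summed over each window and tested with a quasi-binomial model whose dispersion was moderated with limma 3.58.1. This used 759352 positions covered in all 12 libraries, and the median coverage per library was 26 to 43 reads. A bound uses a floor of 3 counts pooled over a group, intervals on pooled counts are at 95%, and both cover counting error only. Alternatives were other scalings (RLE, upper quartile), low-count filters, DESeq2 1.42.0, each pair of groups alone, each library left out and a replicate block. A 2-fold minimum was applied to counts of called members only, not to single genes. For RRBS the further alternatives were a higher coverage, narrower windows and no minimum difference. Both tests were checked on simulated data. Promoter windows come from RefSeq (GRCm38.p6), which listed 44 of the 61 members. Python 3.11.15, pandas 2.3.3, numpy 2.4.6 and scipy 1.17.1 were used elsewhere.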

Additional observations from a re-analysis of the deposited data

How the results depend on the processing

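Of 2119 combinations of a member, comparison and alternative, 1829 kept both direction and side of the threshold, 141 lost a call and 64 gained one. Another 81 changed sign without a call in either fit, 49 of them with a library left out, the widest being Slc43a1 for NMDA against young (-2.96, and 3.99 without young library 1). In 4 more the sign changed and the alternative was called, each with a young library left out. Slc1a1 for NMDA against young was -0.31 (log2), and -1.14 to 1.95 with 1 library left out. For aged against young cells, Slc7a6 was 0.34 and ran from -0.70 to 10.52, Slc6a15 was -1.27 and ran from -2.27 to 8.18, and Slc6a17 was -0.01 and ran from -0.86 to 2.61. Young libraries 1 and 2 held 0 and 168 counts of Slc7a6, 0 and 99 of Slc6a15, 470 and 29 of Slc6a17 and 25 and 0 of Slc43a1. The fitted 10.52, 8.18 and 3.99 are against a single young library at 0 and are no estimates of size. The cause of the difference between the young libraries was not tested.

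Called members for NMDA against young numbered 19, and 10 with these groups alone, 12 with a 2-fold minimum and 14 to 25 with 1 library left out. For aged against young the number was 12, and 1 with these groups alone and 6 to 23 with 1 library left out. For RPC against young it was 30, and 24 to 31 with 1 left out. For NMDA against aged it was 9, and 17 with DESeq2, 16 with these groups alone, 5 with a 2-fold minimum and 5 to 9 with 1 library left out. With DESeq2 these were 9 higher and 8 lower, and with the groups alone 8 and 8. For RPC against aged it was 28, and 18 to 26 with 1 library left out. Where 1 library of a group was left, it was assumed to vary like the other groups. Over all genes, the number called moved the same way as that of the members under these alternatives, with few exceptions. For RPC against young without young library 1, called members fell while called genes rose. For NMDA against aged without NMDA library 2, called members stayed the same while called genes fell.

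Called windows numbered 2 for NMDA, 2 for RPC and 1 for aged cells, each against young cells. They numbered 21, 19 and 24 with no minimum difference, 1, 2 and 0 with at least 20 reads, 1, 1 and 0 with 500 bases either side, and 1 to 2, 2 to 2 and 0 to 2 with 1 library left out.

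Same-numbered samples of different groups did not deviate together (r of -0.06 to 0.08 over 13 RNA pairs and -0.08 to 0.06 over 18 RRBS pairs), so they share only a number. With a replicate block the called members numbered 14, 9, 26, 7 and 25 in the order NMDA against young, aged against young, RPC against young, NMDA against aged and RPC against aged, and the called windows 2, 1 and 2 for NMDA, aged and RPC against young. Fewer of all genes were also called with the block in each of these RNA comparisons. Values of a few CPM are least certain in the young libraries, which detected 13913 and 14919 genes at totals like those of other libraries. A 0 in these libraries also fell on genes with higher levels in other groups.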
